A study of Mus musculus with 14 samples.

Results

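Tlx3, Isl1, Barx2, En1, En2 and Fgf8 are 6 of the 31054 genes counted in each library, and they were chosen by name because they had been seen to mark shared or mutually exclusive domains of the Hox-negative, Pax6-positive granule lineage cells of the hindbrain. Their levels across cell classes and stages, and which of them occur in the same cell, are therefore given as descriptions, without a test. Effects of genotype and the other genes of each domain were tested.

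Tlx3 (also a selector of excitatory fates in the spinal cord), Barx2, En1 and En2 encode homeodomain transcription factors, and Isl1 encodes a LIM homeodomain factor best known from motor and sensory neurons. Fgf8 encodes the secreted ligand of the isthmic organizer, the signaling center at the border of midbrain and hindbrain whose FGF signal keeps En1 and En2 expressed and patterns the cerebellum. Granule cell progenitors leave the rostral rhombic lip under the control of Atoh1, cover the surface of the cerebellum, divide in response to Sonic hedgehog and mature into the Pax6-positive excitatory granule neurons.

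Single-cell RNA sequencing was performed on Atoh1-lineage cells, labeled by Cre-dependent tdTomato and isolated by FACS. At E14.5 and at E18.5, whole hindbrains of 3 control embryos (Atoh1Cre/+; Rosa lsl-tdTomato/+) and 3 Atoh1S193A/- embryos (Atoh1Cre/S193A; Rosa lsl-tdTomato/+) gave 1 library per embryo, and at P5 the dissected pontine nuclei of 11 to 13 pooled control pups gave each of 2 libraries. In every animal Cre replaces the coding region of 1 Atoh1 allele, so controls carry 1 wild-type copy and Atoh1S193A/- embryos carry only the hypomorphic copy, whose phospho-site is mutated to alanine. UMI counts do not show this amino acid change, so the genotype labels were not checked against the reads. Labeled cells comprise every descendant of Atoh1-expressing cells, not granule cells alone.

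After filtering, 80256 cells remained in the 14 libraries, and clusters with low Hox, high Pax6 and detectable Barhl1 levels held 30201 of them. These Hox-negative Pax6-positive cells numbered 5824 of 34427 at E14.5 (4 clusters), 23655 of 31823 at E18.5 (21 clusters) and 722 of 14006 at P5 (2 clusters). Their summed granule lineage markers (11 genes, among them Pax6, Barhl1, Zic1, Neurod1 and Atoh1) lay between 2726 and 4403 UMIs per 1000000 (CPM) in each embryonic library, whereas Gad2, C1qa and Col3a1, which define inhibitory neurons, microglia and mesenchyme, were at 3.11 CPM or less. The sum includes Pax6 and Barhl1, by which the clusters were chosen. Markers of other types were present in the same libraries. Summed unipolar brush cell markers lay at 268 to 574 CPM and rostral neuron markers at 309 to 518 CPM. Otx2 made up most of the first sum, on average 255 of 356 CPM in E14.5 controls and 249 of 348 CPM in E18.5 controls. The rostral list includes Reln, which is also on the granule neuron differentiation list used below. Neither sum is therefore a measure of how many cells of another type were present. Glial markers lay at 117 to 162 CPM and oligodendrocyte lineage markers at 41.7 to 119 CPM. The cells were not named granule cells, because 1 cluster of E14.5 (led by Nts, Cartpt and Barx2, with Eomes and Olig2) and 1 of E18.5 (led by Nts, Rassf9, Olig2 and Barx2) held more markers of other cell types than of the granule lineage among their 10 leading genes. Both of these mixed clusters are rich in Barx2, and tests of genotype, co-detection and the comparison of Tlx3-positive with Barx2-positive cells are given with and without them. The comparisons of each gene's positive with its negative cells include them.

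Each cluster was assigned to 1 of 3 states, cycling (high Mki67), non-cycling progenitor (Atoh1 without high Mki67) or neuron. As the comparison class served 8063 Hox-positive cells with Pax6 and Barhl1, whose Hox genes mark a caudal origin. Total UMIs per library ranged from 108239001 to 236964126 and the median per retained cell from 12012 to 20917.5. At most 0.624% of the barcodes of the smaller library were shared between any pair of libraries.

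One pair of libraries with the same number stood apart. Of the retained cells at E14.5, the class made up 21.9%, 7.35% and 23.8% in control libraries 1 to 3 and 26.0%, 5.06% and 22.7% in Atoh1S193A/- libraries 1 to 3, so that pair 2 was low in both genotypes. Between genotypes the share did not differ beyond the spread of libraries (two-sided exact permutation test, p = 1.0). At E18.5 the shares were 75.5%, 76.8% and 67.7% in controls and 74.2%, 82.6% and 70.4% in Atoh1S193A/- embryos (exact permutation test, p = 0.6). In a sorted sample, fewer cells of a type and less RNA per cell of that type cannot be told apart in summed counts over all cells, so levels below are within the class.

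The 6 genes lie on 6 chromosomes (GRCm38). Tlx3 (ENSMUSG00000040610) spans chr11:33200752-33203589 on the minus strand, Isl1 chr13:116298281-116309689 on the minus strand, Barx2 chr9:31846044-31913462 on the minus strand, En1 chr1:120602418-120607992 on the plus strand, En2 chr5:28165694-28172166 on the plus strand and Fgf8 chr19:45736798-45742915 on the minus strand. The paralogs En1 and En2 share no stretch of 30 bases in their transcripts, and Tlx3 shares 2 with Tlx1 and 3 with Tlx2, so their reads can be told apart.

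Promoter sequences from RefSeq (GRCm38.p6) were found for 3 of the 6 genes, and are shown because Tlx3 and Isl1 were detected in the same cells and En1 overlapped with Tlx3 only in part. The bases upstream of the gene start are printed 5′ to 3′ on the gene's strand. Capitals mark the CCAAT box on either strand (CCAAT or ATTGG) and the E-box CAGCTG, a motif of the kind that proneural bHLH factors such as ATOH1 bind.
Tlx3 promoter, chr11:33203590-33203838, minus strand: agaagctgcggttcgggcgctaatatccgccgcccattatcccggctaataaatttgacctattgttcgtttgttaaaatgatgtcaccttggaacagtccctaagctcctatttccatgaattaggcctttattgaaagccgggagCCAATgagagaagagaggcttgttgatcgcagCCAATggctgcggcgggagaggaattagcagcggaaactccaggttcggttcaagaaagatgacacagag
Isl1 promoter, chr13:116309690-116309938, minus strand: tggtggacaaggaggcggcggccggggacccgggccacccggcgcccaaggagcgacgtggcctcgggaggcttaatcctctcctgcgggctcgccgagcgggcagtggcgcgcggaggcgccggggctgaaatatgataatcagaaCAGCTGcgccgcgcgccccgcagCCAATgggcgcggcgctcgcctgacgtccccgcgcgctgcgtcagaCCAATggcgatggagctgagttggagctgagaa
En1 promoter, chr1:120602237-120602417, plus strand: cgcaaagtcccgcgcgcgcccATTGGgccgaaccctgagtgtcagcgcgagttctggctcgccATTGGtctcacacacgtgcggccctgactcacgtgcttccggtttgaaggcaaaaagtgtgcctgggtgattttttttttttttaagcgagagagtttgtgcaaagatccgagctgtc
Motifs were searched in the first 250 bases of each RefSeq entry, of which 249, 249 and 181 bases lie before the annotated gene start and are printed. Each of the 3 windows held 2 CCAAT boxes. A CCAAT box, in any number, occurs in 33.8% of 32851 promoters. CAGCTG was found once, upstream of Isl1 (13.0% of promoters), and TAATTA, the core that homeodomain factors prefer, in none of the 3 (4.84% of promoters). The motifs do not overlap each other, and a match in these letters is a description, not a binding site.

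Tlx3 was present at both embryonic stages and was the member with the strongest difference between same-numbered pairs at E14.5. Its level in the Hox-negative Pax6-positive cells was 30.5, 2.38 and 49.2 CPM in E14.5 control libraries 1 to 3 and 53.3, 0.255 and 36.0 CPM in Atoh1S193A/- libraries 1 to 3. At E18.5 it was 105, 91.4 and 112 CPM in controls and 95.5, 101 and 109.5 CPM in Atoh1S193A/- embryos. Both libraries of pair 2 at E14.5 were nearly devoid of Tlx3, every E18.5 library lay above every E14.5 library, and the genotypes overlapped at both stages.

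Fgf8 followed the same pairs of libraries. It measured 4.4, 0.952 and 6.57 CPM in E14.5 controls and 4.48, 0.382 and 4.52 CPM in E14.5 Atoh1S193A/- libraries. At E18.5 its level was 11.4, 10.7 and 10.4 CPM in controls and 12.2, 13.4 and 10.4 CPM in Atoh1S193A/- libraries. Pair 2 was again the lowest in each genotype, and the E18.5 libraries were the higher ones throughout.

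Isl1 was near 0 in E14.5 control cells of the class and higher in every Atoh1S193A/- library. The E14.5 control libraries had 0.406, 0.666 and 0.417 CPM, which rest on 6, 7 and 12 UMIs, and the Atoh1S193A/- libraries had 4.25, 4.59 and 2.59 CPM (113, 36 and 93 UMIs). At E18.5 the levels were 6.51, 8.34 and 6.83 CPM in controls and 11.4, 16 and 12.1 CPM in Atoh1S193A/- libraries. The genotypes did not overlap at either stage, and pair 2 did not stand apart for this gene.

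Barx2 was low in E14.5 controls, with 8.66, 1.43 and 7.06 CPM. The Atoh1S193A/- libraries of that stage had 51.6, 4.08 and 35.9 CPM, and pair 2 was the lowest of each genotype. At E18.5 the controls had 16.7, 15.0 and 13.9 CPM and the Atoh1S193A/- libraries 33.0, 12 and 12.5 CPM, so 1 library was high and the other two were below every control.

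En1 and En2, the Engrailed paralogs, were measured at both stages and in all embryonic libraries. En1 measured 61.2, 63.2 and 65.2 CPM in E14.5 controls and 35.8, 45.7 and 38.1 CPM in E14.5 Atoh1S193A/- libraries, without overlap. At E18.5 it measured 65.6, 69.0 and 83.8 CPM in controls and 43.3, 56.6 and 71.9 CPM in Atoh1S193A/- libraries, which overlapped. En2 stayed between 51.9 and 71.4 CPM in all 12 embryonic libraries.

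**Figure D1:**
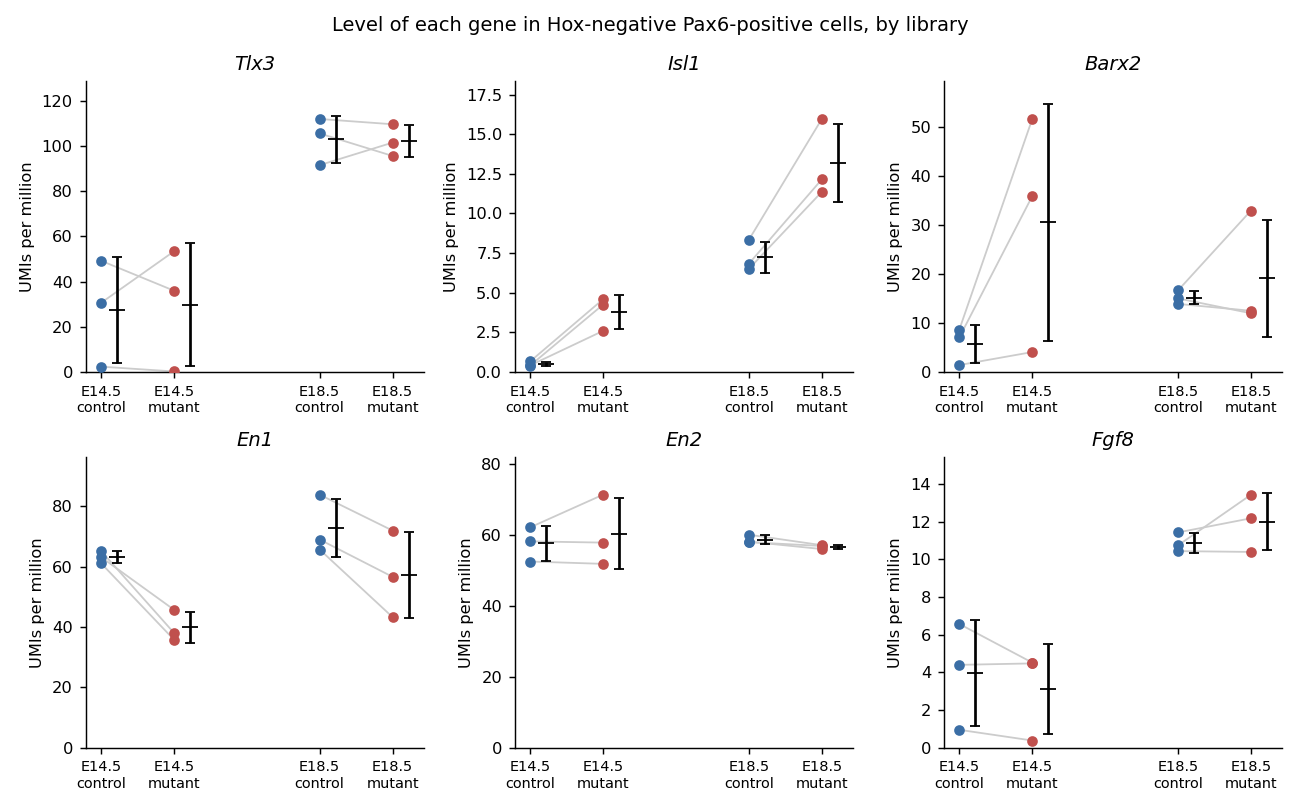
Level of each of the 6 genes in the Hox-negative Pax6-positive cells (CPM, vertical axis, 1 panel per gene) in each library of E14.5 and E18.5, with points for embryos, gray lines joining same-numbered libraries and bars for the mean and SD of 3. Isl1 points of Atoh1S193A/- embryos sit above all control points at both stages, and 1 of the 3 Tlx3 points of each genotype at E14.5 lies near 0.

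The domains differed in maturity. Among E18.5 control libraries, En1 averaged 138 CPM in neurons, against 36.4 in cycling cells and 27.4 in non-cycling progenitors. Barx2 ran the other way, with 1.16 CPM in neurons, 20.3 in cycling cells and 29.8 in progenitors, and so did Fgf8, with 2.40, 14.2 and 19.2 CPM in the same order. Tlx3 (115, 88.2 and 110.2 CPM) and En2 (56.0, 63.2 and 55.4 CPM) varied little between the states, and Isl1 was highest in progenitors at 11.9 CPM.

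Within the class, the clusters of E18.5 separated the genes further. The neuron cluster led by Isl1 and Tlx3 (cluster 18) had 442, 475 and 484 CPM of Tlx3 in the 3 control libraries and 53.3, 101 and 78.2 CPM of Isl1. A second neuron cluster, led by Fgf5, Ntf3 and En1 (cluster 15), had 302, 276 and 269 CPM of Tlx3 with 379, 403 and 408 CPM of En1, but only 1.32, 3.42 and 2.38 CPM of Isl1. Tlx3 was thus abundant in neurons with and without Isl1, and both clusters were rich in En1.

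Fgf8 was concentrated in a pair of Tlx3-rich clusters of dividing or undifferentiated cells. In the progenitor cluster led by Fgf8 and Pmaip1 (cluster 7), control libraries had 61.5, 52.8 and 52.4 CPM of Fgf8 and 44.6, 37.1 and 26.6 CPM of Isl1. In the cycling cluster led by Fgf8 and histone genes (cluster 14), they had 53.2, 60.7 and 47.2 CPM of Fgf8 and 15.7, 18.6 and 18.8 CPM of Isl1. Fgf8 averaged 15.8 CPM or less in each of the other 19 clusters of the class.

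Barx2 occupied 4 other clusters. Its control libraries had 67.1, 53.6 and 56.3 CPM in the progenitor cluster led by Mgarp, Ccnd2 and Hes5 (cluster 1), 60.0, 46.1 and 42.9 CPM in a cycling cluster with histone genes (cluster 5) and 65.9, 64.6 and 72.5 CPM in a mitotic cluster (cluster 16). The mixed progenitor cluster (cluster 25) reached 190.2, 159 and 166 CPM. Tlx3 averaged 19.2 CPM or less in these 4 clusters, against 324 CPM or more in the Fgf8-rich pair.

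En2 was spread most evenly. Control means lay between 40.4 and 93.6 CPM in 21 of the 25 embryonic clusters of the class, and between 4.0 and 19.1 CPM in 4 clusters (cluster 12 led by Kcnip4 and Nr2f2, cluster 21 led by Rorb, cluster 27 led by Tll1 and the mixed cluster 25).

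**Figure D2:**
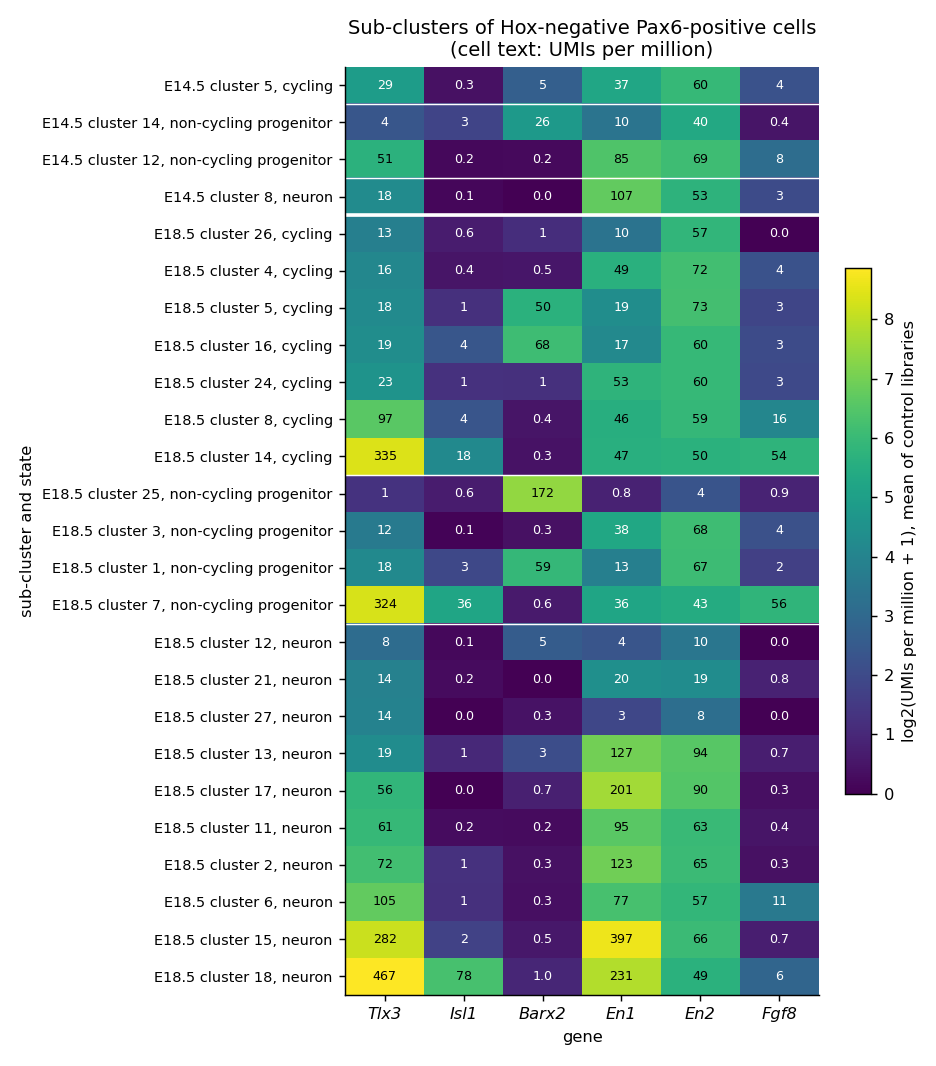
Mean level of the 6 genes in the control libraries (log2 of CPM plus 1, color) in each of the 25 embryonic clusters of the class (rows, grouped by stage and state, with the CPM written in). Bright cells for Tlx3 and for Barx2 fall in different rows, and Fgf8 is high in only the 2 Tlx3-rich clusters 7 and 14 of E18.5.

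Detection in the same cell was then examined. Every cell was thinned to 5000 UMIs, cells below that depth were left out, and a cell with at least 1 UMI was counted as positive. At E18.5, of 23401 cells, 5335 were positive for Tlx3, 628 for Isl1, 1363 for Barx2, 4292 for En1, 5418 for En2 and 848 for Fgf8. As a background, the Hox-positive cells of E18.5 had at most 1.82% positive cells for Tlx3 and En2, 2.56% for En1, 0.749% for Isl1 and Barx2 and 0.375% for Fgf8 in any library. Their median depth was 15373 to 21051 UMIs, against 12096 to 18636 in the class. At E14.5 Isl1 was detected in 2.87% to 7.64% of Hox-positive cells, above its share in the class.

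Tlx3 and Isl1 were the most strongly shared pair. Of the Isl1-positive cells at E18.5, 79.0% were also Tlx3-positive, and 496 cells held both, where 143 would be found if the genes were distributed independently in each library. The log2 odds ratio averaged 3.73 ± 0.42 (SD, n = 6 libraries) and lay between 3.11 and 4.08, and without thinning it averaged 4.42. In the other direction, only 9.30% of Tlx3-positive cells were Isl1-positive, so Isl1 marked a part of the Tlx3 domain.

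Fgf8 shared the same domain. Of the Fgf8-positive cells, 67.7% were Tlx3-positive (574 cells with both, 193 by independence, log2 odds ratio 2.97 ± 0.21, n = 6, and 4.34 without thinning). Isl1 and Fgf8 were found together in 95 cells, against 23.0 by independence (2.48 ± 0.43). Fgf8-positive cells were also deeper, with a median of 19015.5 UMIs before thinning against 15410 in negative cells, and 46.6% of them were in cycling clusters against 32.0% of negative cells.

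Tlx3 and Barx2 were nearly exclusive. Both were detected in 37 cells at E18.5 where 308 would be found by independence, and the log2 odds ratio was -3.44 ± 0.55, below 0 in 6 of 6 libraries (-2.70 without thinning). The exclusion was present within cycling clusters (mean log2 odds ratio -3.55, 10 cells against 118) and within progenitor clusters (-3.58, 17 against 153). In neurons, where Barx2 was rare, 10 cells held both against 22.7 by independence. Without the mixed cluster the value over all states was -3.31 (32 cells against 247).

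Barx2 was also apart from Isl1, Fgf8 and En1. It was found with Isl1 in 5 cells against 36.9 by independence (-2.40 ± 1.16), with Fgf8 in 6 against 50.5 (-2.47 ± 0.85) and with En1 in 71 against 239 (-2.04 ± 0.37), each below 0 in 6 of 6 libraries. With Isl1 the value was -1.0 without thinning and -1.01 at 3000 UMIs, and with Fgf8 it was -1.24 in non-cycling clusters. En2 was the only member that Barx2-positive cells held at nearly the rate of other cells, 17.6% against 23.5% (-0.35 ± 0.37). Leaving out the mixed cluster gave -2.13 for Isl1, -2.31 for Fgf8, -1.78 for En1 and -0.05 for En2, and moved the pairs without Barx2 by less than their SD.

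En1 overlapped with Tlx3 and En2 to a smaller degree. En1 and Tlx3 were found together in 1407 cells against 982 (0.89 ± 0.34), and most of this came from neurons (1.24) rather than from cycling cells (0.09). In controls the value was 1.14 ± 0.22 and in Atoh1S193A/- libraries 0.64 ± 0.23 (SD, n = 3 each), a difference that was not tested. En1 and En2 were found together in 1410 cells against 996 (0.86 ± 0.21). Of the En1-positive cells 69.4% were neurons, against 40.5% of the En1-negative cells.

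**Figure D3:**
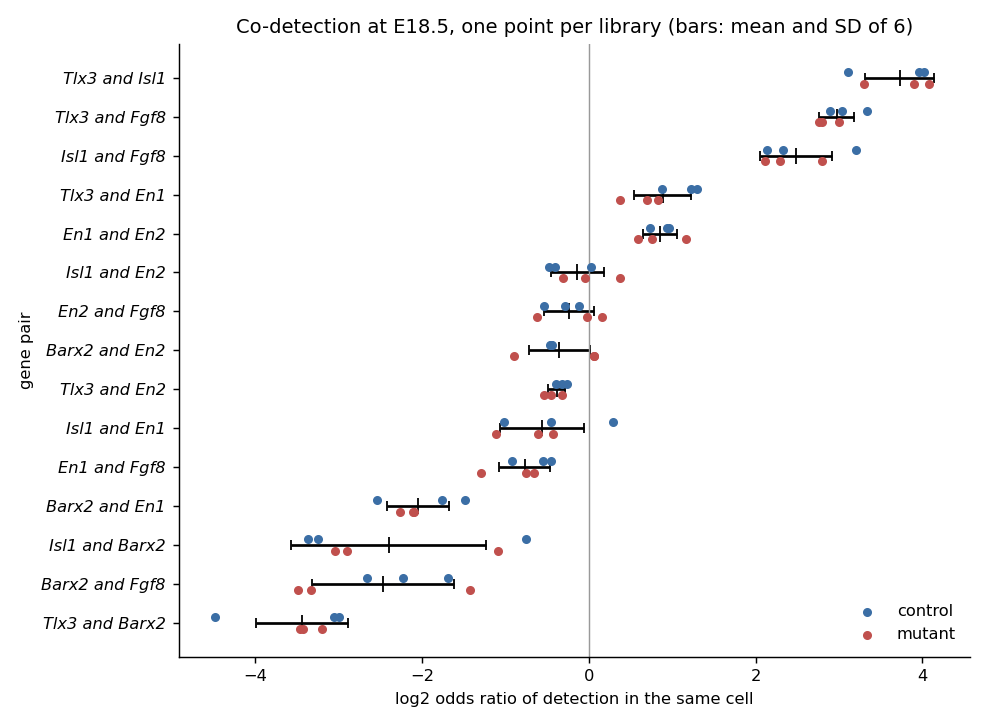
Log2 odds ratio of detection in the same cell for the 15 pairs of genes at E18.5 (horizontal axis), with 1 point per library and a bar for the mean and SD of 6. Tlx3 with Isl1, Tlx3 with Fgf8 and Isl1 with Fgf8 lie between 2.12 and 4.08, and all points of Tlx3 with Barx2 lie below -2.9.

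At E14.5 part of this pattern was visible with fewer cells, and some pairs of genes differed. Of 5794 cells, 517 were positive for Tlx3, 398 for Barx2, 903 for En1, 1288 for En2, 110 for Fgf8 and 45 for Isl1. Tlx3 and Barx2 met in 4 cells against 39.5 by independence, with a log2 odds ratio of -2.58 ± 1.05 over the 4 libraries that had at least 10 positive cells of each. Most of the expected cells came from Atoh1S193A/- libraries 1 and 3 (17.2 and 16.3, with 2 and 1 found). Control libraries 1 and 3 had 1.27 and 4.72 expected and 0 and 1 found, so the exclusion rests mainly on Atoh1S193A/- cells. Over all 6 libraries the mean was 0.12 ± 4.28, since pair 2 holds so few positive cells that the ratio is set by the 0.5 added to each count.

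Fgf8 again lay within the Tlx3 domain at E14.5, with 57.3% of its positive cells also Tlx3-positive (63 cells against 11.1, log2 odds ratio 3.74 ± 0.69 over 4 libraries). En1 and En2 were shared in 353 cells against 201 (1.58 ± 0.56, n = 6). Isl1 differed from E18.5: 4 of its 45 positive cells held Tlx3, where 3.63 would by independence, and 8 held Barx2, where 4.51 would. All of these cells came from Atoh1S193A/- libraries, since Isl1-positive cells averaged 0.212% in controls and 1.53% in Atoh1S193A/- libraries. With Barx2, library 1 held 8 against 3.01 expected and library 3 held 0 against 1.34. The counts for Isl1 thus rest on Atoh1S193A/- cells, and those with Barx2 on 1 library. Some log2 odds ratios turned in sign, read at E14.5 from libraries 1 and 3 of each genotype. En1 with Fgf8 lay between 0.93 and 1.45 at E14.5 and between -1.29 and -0.45 at E18.5. Tlx3 with En2 lay between 0.065 and 0.42 at E14.5 and between -0.54 and -0.26 at E18.5. Tlx3 with En1 lay between -0.73 and 0.60 at E14.5. These differences between the stages were not tested. Without the mixed cluster, 4 Isl1-positive cells held Tlx3 against 2.23 by independence and 2 held Barx2 against 0.898, and 2 cells held Tlx3 with Barx2 against 15.1.

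Most cells held few of the 6 genes. No member was detected in 56.4% of cells at E14.5 and 45.0% at E18.5, and 1 member in 32.3% and 36.9%. Cells with 3 members made up 1.14% and 2.88%, and a single cell of E18.5 held 5.

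The genes differed in how specific they were to the class. At E18.5 the class held 77.3% of the UMIs of all retained cells, but 98.8% of the Tlx3, 98.2% of the Isl1, 99.1% of the Fgf8, 93.6% of the En1, 92.4% of the Barx2 and 79.3% of the En2 UMIs. At E14.5 it held 19.0% of all UMIs and 85.5% of those of Fgf8, 71.2% of Barx2, 62.7% of Tlx3, 26.4% of En2, 25.4% of En1 and 8.78% of Isl1. The Hox-positive class held 58.4% of the Isl1 UMIs of E14.5, and the rest of Tlx3 was led by a cluster rich in Hoxc8 and Prrxl1 (cluster 22, 126 CPM).

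At P5, where only the pontine nuclei were dissected, 711 of the 722 cells of the class came from control library 2 and 11 from control library 1. In library 2, with 686 cells at the thinned depth, En2 was detected in 21.6% of cells, Barx2 in 1.02% and Tlx3 in 0.583%. Isl1, En1 and Fgf8 were detected in 0 of 686 cells, which allows a share of up to 0.536% (exact binomial interval, counting error only). This bound is for cells with a UMI at the thinned depth, not for cells that express the gene. Its En2 level was 50.6 CPM, within the range of E14.5 and E18.5 cluster means, whereas Tlx3 was at 0.776 CPM.

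The question of the embryonic comparison was whether the hypomorphic Atoh1 allele changed these domains. Summed counts of the class were compared with the quasi-likelihood test of edgeR, and a gene was called where its FDR lay below 0.05 and its log2 difference beyond 0.25 in size. At E14.5 no gene of 13887 was called (0%), and 934 had an unadjusted p under 0.05. Each Atoh1S193A/- embryo was collected with a littermate control, and libraries with the same number deviated together, so the test was also run with the pair as a block. That equal numbers mark littermates was inferred from these same counts and is not stated in the labels. The blocked fit called 338 genes (2.43%), 1.17% of genes higher and 1.27% lower in Atoh1S193A/- cells, and DESeq2 without a block called 92 (0.662%, with 0.338% higher and 0.324% lower). Every blocked fit within a stage leaves few residual degrees of freedom and draws its variance largely from all genes. Its FDRs are therefore limited evidence of replication.

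Isl1 showed the largest change of the members at E14.5. It was higher in Atoh1S193A/- cells by 2.93 on the log2 scale (SE 0.35) with an edgeR FDR of 0.073. Before thinning, 0.421%, 0.642% and 0.447% of control cells held a UMI of Isl1, so it passed the filter of 1% of the cells of either genotype only through the Atoh1S193A/- cells (4.03%, 4.29% and 2.75%). With the pair as a block it rose by 2.86 (SE 0.27, FDR 0.0059), and DESeq2 gave 2.94 (adjusted p 1.52e-06). A filter blind to genotype, a UMI in 1% of the cells of both genotypes together, was added after seeing the data. Isl1 passed it, again by way of the Atoh1S193A/- cells, and DESeq2 was not rerun under it. With this filter the difference was 2.94 without the block (edgeR FDR 0.0749) and the rise 2.87 with the block (FDR 0.0054, 2.37% of genes called). The few control UMIs limit the size of the change. It was higher in 3 of 3 pairs, by 2.59 to 3.28. The share of Isl1-positive cells was 0.142%, 0.430% and 0.0641% in controls and 1.78%, 2.00% and 0.810% in Atoh1S193A/- libraries (exact permutation test, p = 0.1, the smallest that 3 against 3 allow, and 0.3 adjusted over the 6 genes).

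Barx2 was the next largest. Its log2 difference was 2.39 (SE 0.79) with an edgeR FDR of 0.559, and with the pair as a block it rose by 2.37 (SE 0.15, FDR 0.00213), while DESeq2 without a block gave 2.40 (adjusted p 0.675). The mutant library was higher in 3 of 3 pairs, by 2.57, 1.49 and 2.34, although pair 2 was low in both genotypes. Without pair 2 the difference was 2.48 (edgeR FDR 0.154, with no gene called), and with the block added the rise was 2.44 (edgeR FDR 1.05e-12) in a fit that called 8.38% of genes. This blocked fit leaves still fewer residual degrees of freedom than the one with all pairs and draws its variance largely from all genes, so its FDR says little about replication.

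En1 was lower in Atoh1S193A/- cells at E14.5. The log2 difference was -0.70 (SE 0.11, edgeR FDR 0.196), -0.71 with the pair as a block (SE 0.072, FDR 0.0069) and -0.71 in DESeq2 (adjusted p 0.000204). All 3 pairs showed the same direction, from -0.78 to -0.47. En1-positive cells averaged 19.2% ± 0.283 in controls and 12.6% ± 1.11 in Atoh1S193A/- libraries (SD, n = 3 each, exact permutation test, p = 0.1, adjusted 0.3).

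Tlx3, En2 and Fgf8 had log2 differences of 0.12 (SE 1.08), 0.03 (SE 0.13) and -0.30 (SE 0.68) at E14.5, with FDRs of 0.998, 0.992 and 0.977 in edgeR, and none was called with the block. For Tlx3 the interval was wide, since pair 2 was near 0.

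Cell composition moved with these results. The neuron state made up 31.0% ± 2.27 of the class in E14.5 controls and 20.4% ± 4.61 in Atoh1S193A/- libraries, and the mixed Barx2-rich cluster made up 18.7%, 12.2% and 13.1% against 26.8%, 23.7% and 20.8%. The 4 summed roof plate markers (Msx1, Msx2, Rspo1 and Ttr) lay at 71.0 to 102 CPM in controls and 156 to 286 CPM in Atoh1S193A/- libraries, and Otx2 averaged 255 and 363 CPM. Their part in the change of Barx2, Isl1 and En1 was measured only by fits within states and without the mixed cluster.

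Those fits were chosen after seeing the data. Without the mixed cluster and with the block, Isl1 rose by 3.28 (edgeR FDR 0.0405), Barx2 rose by 2.61 (FDR 0.00983) and En1 fell by 0.59 (FDR 0.0359), with 0.942% of genes called, while without the block they differed by 3.41 (FDR 0.208), 2.60 (FDR 0.626) and -0.57 (FDR 0.498). Within cycling cells and with the block (1.22% of genes called), Isl1 rose by 2.77 (FDR 0.0352), Barx2 by 2.29 (FDR 6.08e-05) and En1 fell by 0.53 (FDR 0.0231). Within progenitors (1.79% called) the values were 2.83 (FDR 0.00808), 2.17 (FDR 0.000472) and -0.78 (FDR 0.00808). In neurons (0.131% called) En1 differed by -0.44 (FDR 0.0603), Barx2 was listed at 0 UMIs in all control libraries, and Isl1 did not pass the filter. Without the block no gene was called in any state (0%). With the filter blind to genotype and the block, Isl1 rose by 3.28 without the mixed cluster (edgeR FDR 0.0416), by 2.77 in cycling cells (FDR 0.0441) and by 2.83 in progenitors (FDR 0.00771). In each of these fits Isl1 rests on a part of the 6, 7 and 12 control UMIs of the class, which limits what they can show. Over the class Isl1 passed both filters by way of the Atoh1S193A/- cells. The filter blind to genotype is therefore no separate support for its rise at E14.5.

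The change of Isl1 was visible within clusters. In the Tlx3-rich progenitor cluster of E14.5 (cluster 12), Isl1 measured 0, 0.459 and 0 CPM in controls and 3.38, 6.19 and 3.01 CPM in Atoh1S193A/- libraries. In the cycling cluster (cluster 5) it measured 0.206, 0 and 0.713 against 3.29, 4.42 and 2.49 CPM. Barx2 in the same cycling cluster measured 6.99, 0.678 and 8.65 against 44.7, 6.63 and 34.6 CPM, and in the mixed cluster (cluster 14) 36.2, 10.6 and 32.0 against 139, 9.93 and 111 CPM. Within the mixed cluster, pair 2 thus showed no higher Barx2 in the Atoh1S193A/- library.

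In the Hox-positive class, where Isl1 was more widespread, its level at E14.5 was 16.2, 5.77 and 8.93 CPM in controls and 18.8, 16.9 and 16.7 CPM in Atoh1S193A/- libraries. The log2 difference was 0.74 (SE 0.31, edgeR FDR 0.986), and 0.81 with the block (FDR 0.267, 0.0367% of 13641 genes called). Whether the effect differed between the classes was not tested.

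At E18.5 edgeR called 5 of 13630 genes (0.0367%), 2 higher (0.0147%) and 3 lower (0.022%) and none of them a member, and 51 (0.374%, with 0.154% higher and 0.22% lower) with the pair as a block. Isl1 had a log2 difference of 0.84 (SE 0.17, edgeR FDR 0.34), rose by 0.84 with the block (SE 0.068, FDR 0.00562) and was called by DESeq2 (0.85, adjusted p 0.0016, 0.558% of genes called). It was higher in 3 of 3 pairs, by 0.80, 0.94 and 0.83. The share of Isl1-positive cells was 2.02%, 2.39% and 1.74% in controls and 2.97%, 3.95% and 3.00% in Atoh1S193A/- libraries (exact permutation test, p = 0.1, adjusted 0.3).

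The rise of Isl1 at E18.5 was found in each state with the block. It was 1.08 in cycling cells (edgeR FDR 0.00162, 1.66% of genes called), 0.74 in progenitors (FDR 0.0135, 1.43%) and 0.88 in neurons (FDR 0.0219, 0.226%). Without the block Isl1 was called in no state, at 1.09 (FDR 0.341, 0.337% of genes called), 0.77 (FDR 0.112, 0.149%) and 0.86 (FDR 1.0, 0%) in the same order. Without the mixed cluster it differed by 0.84 (FDR 0.31), and with the block added it rose by 0.83 (FDR 0.00254, 0.829% of genes called). Gad2, which defines inhibitory neurons, also lay higher in the class of Atoh1S193A/- libraries at this stage, at 2.64 to 3.11 CPM against 1.2 to 1.42 CPM in controls, while the summed inhibitory list overlapped (5.34 to 6.02 against 4.02 to 5.46 CPM). Their part in the rise of Isl1 was not tested. In the Isl1-rich neuron cluster (cluster 18), the Atoh1S193A/- libraries had 135, 139.6 and 131 CPM, all above the control maximum of 101 CPM. In the cycling cluster with Fgf8 (cluster 14) they had 25.9, 42.3 and 38.9 CPM against 15.7 to 18.8 CPM in controls.

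En1 had a log2 difference of -0.37 at E18.5 (SE 0.18, edgeR FDR 1.0) and of -0.39 with the block (SE 0.065, FDR 0.0666). It was lower in 3 of 3 pairs, and by the block fit within neurons (0.226% of genes called) it fell by 0.48 (FDR 0.000453), against -0.47 (FDR 1.0) without the block. With the block it passed the test without the mixed cluster (-0.39, FDR 0.0326, 0.829% of genes called) and without pair 1 (-0.29, FDR 0.0078, 2.5% called). The fit without pair 1 leaves still fewer residual degrees of freedom than the other blocked fits, so its FDR says little about replication. In the Syt6-led neuron cluster (cluster 17), En1 measured 168, 216 and 219 CPM in controls and 104, 106 and 106 CPM in Atoh1S193A/- libraries, and in cluster 18 it measured 248, 233 and 211 against 113, 138 and 173 CPM.

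Barx2 at E18.5 rested on 1 library. Its log2 difference was 0.32 (SE 0.36, edgeR FDR 1.0), and the pairs differed by 0.98, -0.33 and -0.15. Without pair 1 it was -0.28 (FDR 1.0, and 0.0873 with the block). Leaving out the mixed cluster gave 0.26 (edgeR FDR 1.0), and 0.19 with the block (FDR 0.827). In Atoh1S193A/- library 1 the mixed cluster made up 3.87% of the class, against 1.48% to 1.73% in controls and 0.544% and 0.662% in the other two Atoh1S193A/- libraries. Tlx3, En2 and Fgf8 differed by -0.03 (SE 0.084), -0.07 (SE 0.055) and 0.13 (SE 0.11), and were not called. En2-positive cells averaged 23.6% ± 0.35 in controls and 22.8% ± 0.35 in Atoh1S193A/- libraries, without overlap (SD, exact permutation test, p = 0.1, adjusted 0.3).

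**Figure D4:**
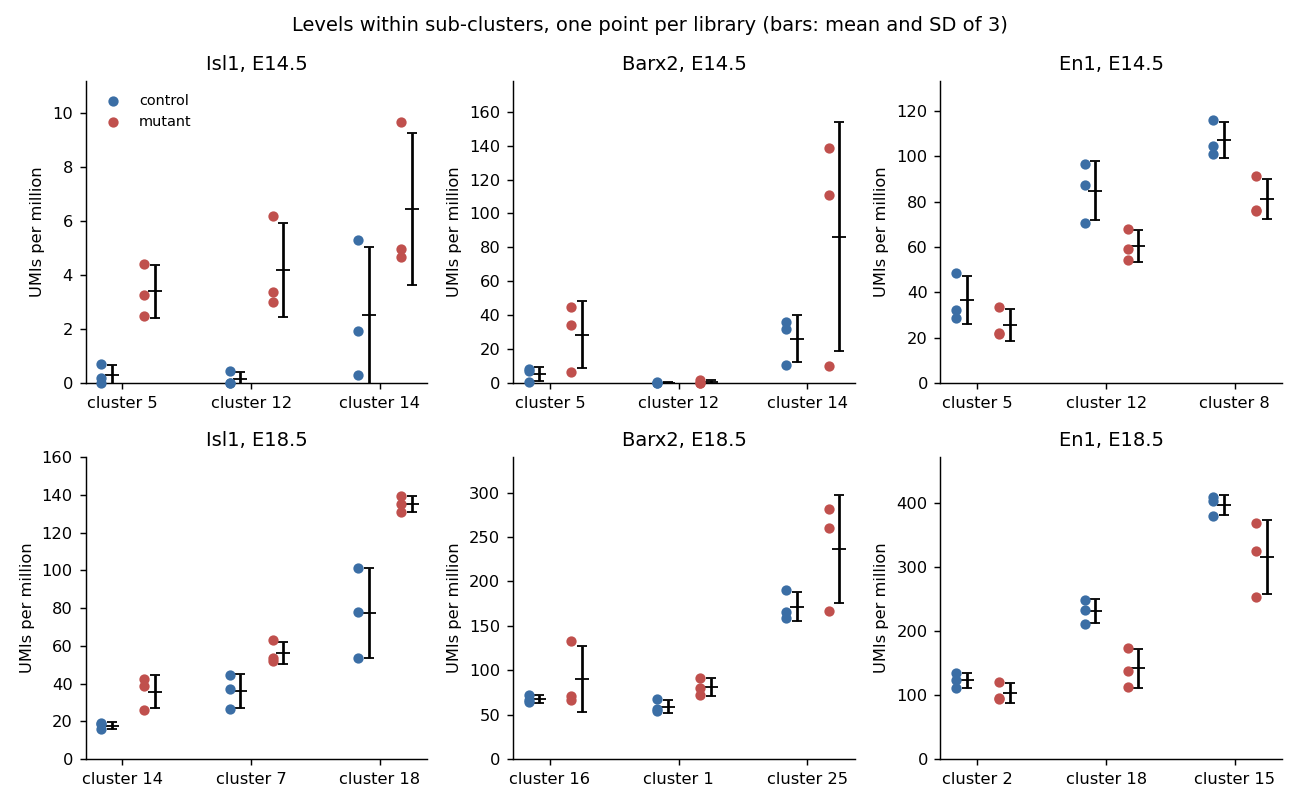
Level of Isl1, Barx2 and En1 (CPM) within single clusters of the class in each library, with controls (blue) and Atoh1S193A/- embryos (red) side by side and bars for the mean and SD of 3. Isl1 of cluster 18 at E18.5 lies at 131 to 139.6 CPM in Atoh1S193A/- libraries and at 53.3 to 101 CPM in controls.

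A term for genotype by stage, fitted over the 12 embryonic libraries, asked whether the genotype effect differed with age. Without the block no gene of 14209 was called by edgeR (0%, 899 with an unadjusted p under 0.05), and with the pairs as a block 94 were (0.662%, 0.408% positive and 0.253% negative), while DESeq2 called 36 (0.253%, 0.162% positive and 0.0915% negative). The effect on Isl1 was smaller at E18.5 than at E14.5 by 2.02 on the log2 scale with the block (interaction -2.02, SE 0.23, FDR 0.0333), against -2.07 and an FDR of 0.255 without it. This is a difference of ratios, since the mean share of Isl1-positive cells was higher by 1.32 percentage points at E14.5 and 1.26 at E18.5. For Barx2 the interaction was -2.18 (SE 0.37, FDR 0.043) with the block and -2.06 (FDR 0.778) without. DESeq2, also without the block, called Isl1 (-2.08, adjusted p 0.0031) and not Barx2 (-2.08, adjusted p 0.842). Without the mixed clusters both missed the threshold with the block, at -2.40 (FDR 0.067) for Isl1 and -2.39 (FDR 0.0542) for Barx2, and 1 gene in all was called. With the filter blind to genotype and the block they were called at -2.02 (FDR 0.0348) and -2.18 (FDR 0.0447), with 0.63% of genes. Without pair 2 of E14.5 they were called with the block, at -2.08 (FDR 0.0208) and -2.22 (FDR 0.0329), and not without it, at -2.15 (FDR 0.327) and -2.15 (FDR 0.478) in a fit that called no gene. For En1 the interaction was 0.33 (SE 0.11, FDR 0.158) with the block.

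Related genes were read against the 2.43% of all genes that were called with the block at E14.5. In this fit, 1 of 17 tested genes of isthmic organizer and FGF8 signaling was called (Otx2, rise of 0.47, edgeR FDR 0.029), as were 1 of 9 hedgehog response genes (Ccnd1, rise of 0.42), 2 of 17 LIM homeodomain and cofactor genes (Ldb2, rise of 1.17, and Lmo3, rise of 0.72) and 1 of 11 Engrailed cofactor genes (Tle4, higher). Of 23 granule neuron differentiation genes, 9 fell, among them Dcx, a microtubule protein of migrating neurons (fall of 0.57), Nhlh1 and Tubb3, with a list median of -0.25 beside 0.0092 over all genes. Barhl1, the BAR homeobox gene of the granule lineage, fell by 0.48 (FDR 0.032). Without the block no gene of any list was called, as no gene was called at all.

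At E18.5, Pou4f1, a POU homeobox gene on the LIM list, rose by 1.06 with an edgeR FDR of 0.045 (0.0098 with the block), and with the block Pou4f2 fell by 1.03 (FDR 0.028) and Barhl1 by 0.35 (FDR 0.038). Because the neuron state was scarcer in E14.5 Atoh1S193A/- libraries, the part of cell composition in the differentiation list was not tested.

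To describe what the opposed domains contain, cells positive for Tlx3 but not Barx2 (5298 cells) were compared with cells positive for Barx2 but not Tlx3 (1326 cells) within the 6 libraries of E18.5. With the library as a block, edgeR called 6261 of 12858 genes (48.7%), 3387 higher in Tlx3-positive and 2874 higher in Barx2-positive cells. Both groups had nearly the same depth, with median UMIs of 16604 and 16371.5, but 49.9% of the Tlx3 group and 6.18% of the Barx2 group were in neuron clusters. Without the mixed cluster, a fit added after seeing the data, 6166 of 12647 genes were called, 3246 and 2920 in the same order.

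Among genes that reached 20 CPM in either group, the 6 with the largest rise in Tlx3-positive cells included Insm2, a zinc finger factor (37.5 ± 1.88 CPM against 0.841 ± 0.899, SD, n = 6 libraries), the ligand Fgf5 (29.5 ± 8.42 against 0.745 ± 0.720) and the nicotinic receptor subunit Chrnb4 (21.8 ± 2.09 against 0.642 ± 0.519). Pmaip1, a pro-apoptotic BH3 gene (45.3 against 1.48 CPM), the neurotrophin receptor Ngfr (52.6 against 1.84 CPM) and Gm12116 (33.8 against 0.781 CPM) completed them. Their log2 differences lay between 4.49 and 5.20, with the same sign in 6 of 6 libraries.

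Barx2-positive cells were marked by Nts, the neurotensin precursor, at 2365 ± 788 CPM against 10.8 ± 9.14 (log2 difference -7.96, SE 0.17). Rassf9 (146 against 0.927 CPM), the dorsal midline homeobox gene Msx1 (41.5 against 0.310 CPM) and Tph1, which encodes tryptophan hydroxylase (42.0 against 0.614 CPM), followed, with Hoxb3os and Gm4792. Without the mixed cluster Nts had a log2 difference of -7.68, and each of the 12 genes on either side was called in the same direction. Hoxb3os is an antisense transcript of the Hox cluster, and its 22.6 CPM in Barx2-positive cells may include reads of its overlapping partner.

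Of 15 tested genes of the FGF8 signaling list, 8 were higher in Tlx3-positive and 5 in Barx2-positive cells, with a median of 0.89 beside -0.012 over all genes. The ETS factors Etv4 (log2 difference 5.90, at a level under 20 CPM) and Etv5 (63.8 against 3.05 CPM), which are induced by FGF receptors, the feedback inhibitors Spry4 (6.74 against 0.542 CPM) and Dusp6 (25.3 against 8.88 CPM), and Pax5 (11.2 against 0.757 CPM) were higher in Tlx3-positive cells. Otx2, the forebrain and midbrain homeobox gene that opposes the isthmic program (874 against 148 CPM), the feedback inhibitor Spry2 (47.8 against 7.24 CPM) and the receptor Fgfr2 (20.9 against 5.87 CPM) were higher in Barx2-positive cells.

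The hedgehog response list had 7 genes higher in Tlx3-positive and 3 in Barx2-positive cells of 10 tested (median 0.83). The receptor Ptch1 (115 against 38.8 CPM), the effector Gli1 (15.1 against 6.40 CPM) and Ccnd1 (221 against 24.7 CPM) were on the Tlx3 side, while Ccnd2 (2938 against 794 CPM) was on the Barx2 side. These cyclins are the D-type cyclins of dividing granule cell progenitors. Barhl1 (387 against 112 CPM) and Barhl2 (99.0 against 30.6 CPM), the other BAR homeobox genes tested, were both higher in Barx2-positive cells.

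Of 23 granule neuron differentiation genes 15 were higher in Tlx3-positive and 4 in Barx2-positive cells (median 0.99), and all 14 S phase and all 14 G2/M genes were higher in Barx2-positive cells. Of 14 LIM and cofactor genes 1 and 7 were called, and of 11 Engrailed cofactor genes 5 and 3, beside 48.7% of all genes.

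Within states, which was added after seeing the data, 3163 of 11092 genes (28.5%) were called in cycling cells, 2906 of 10519 (27.6%) in progenitors and 542 of 10736 (5.05%) in neurons, where 4 libraries and 69 Barx2-positive cells entered. The FGF8 signaling list gave 7 higher and 3 lower of 11 in cycling cells, 7 and 3 of 10 in progenitors, and 4 and 1 of 10 in neurons. The hedgehog list gave 7 and 2 of 10 in cycling cells, 7 and 1 of 10 in progenitors, and 0 and 1 of 8 in neurons. The differentiation list gave 10 higher and 6 lower of 23 in cycling cells (median 0.059), 10 and 8 in progenitors (0.0067) and 5 and 7 in neurons (0.039), so its median of 0.99 was not found within any state. S phase genes did not keep their direction, with 2 higher and 1 lower of 14 in cycling cells and 11 higher and 0 lower of 14 in progenitors. Of the G2/M genes 0 were higher and 9 lower of 14 in cycling cells, 4 higher and 2 lower of 14 in progenitors and 0 higher and 1 lower of 9 in neurons. Ccnd1 had a log2 difference of 3.77 in cycling cells and 3.72 in progenitors, and of 0.36 in neurons, where it was not called.

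**Figure D5:**
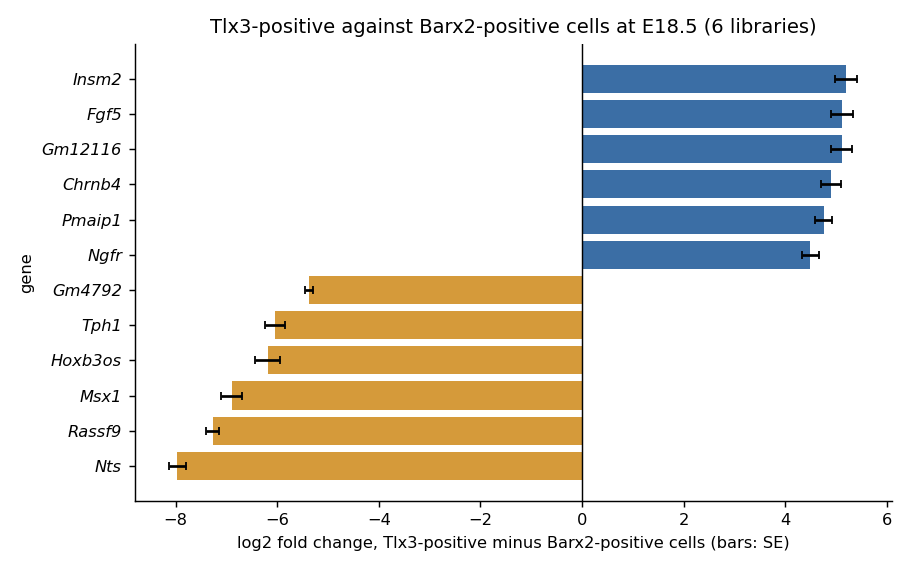
Log2 fold change between Tlx3-positive and Barx2-positive cells at E18.5 (horizontal axis, bars with SE, 6 libraries) for the 6 genes with the largest rise on either side among those reaching 20 CPM in either group. Of the genes plotted, Insm2 leads the Tlx3 side at 5.20 and Nts the Barx2 side at -7.96.

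The contrast could be made at E14.5 with 512 against 385 cells in 4 libraries, where 1998 of 10757 genes were called (18.6%). Insm2 (28.6 against 0.847 CPM), Fst, which encodes the activin antagonist follistatin (29.8 against 0.203 CPM), and Etv5 (44.4 against 0.761 CPM) were higher in Tlx3-positive cells. Nts (502 against 0.276 CPM), Olig2 (231 against 5.79 CPM), Htra1 (138 against 2.69 CPM) and Cxcl14 (116 against 1.34 CPM) were higher in Barx2-positive cells, and Rassf9 was at 26.3 CPM there and at 0 UMIs in the Tlx3 group. Of the Barx2-positive cells of this comparison, counted over all 6 libraries, 68.8% lay in the mixed cluster, which is led by Nts. Without it 123 of them remained, and a fit on 3 libraries, added after seeing the data, called 1665 of 10160 genes (16.4%). Nts (738 against 0.387 CPM), Olig2 (166 against 6.34 CPM), Htra1 (143 against 1.3 CPM) and Cxcl14 (99.4 against 1.31 CPM) were also higher in Barx2-positive cells there. Of 23 differentiation genes in the fit with all clusters, 15 were higher in Tlx3-positive and 3 in Barx2-positive cells, of 14 S phase genes 0 and 9, and of 14 G2/M genes 13 and 0. Whether the lists differed between the stages was not tested.

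Each gene's positive cells were also compared with its negative cells at E18.5, without matching for state. Isl1-positive cells (15.3% of 13992 genes called) had more Pmaip1 (146 against 11.1 CPM), Atoh7, a bHLH factor of retinal ganglion cells (74.8 against 11.3 CPM), and Rph3al, and less of the cannabinoid receptor Cnr1 (17.3 against 142 CPM) and the Wnt antagonist Sfrp1 (9.06 against 68.0 CPM). Tlx3-positive cells (18.7% called) had more of the neurotrophin Ntf3 (109 against 15.3 CPM) and of Gm12116 (33.7 against 3.20 CPM).

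Barx2-positive cells (43.7% of genes called) had more Tal2, a bHLH factor (21.6 against 0.859 CPM), and Olig2 (88.3 against 7.90 CPM), and less of the axon guidance receptor Robo2 (17.0 against 193 CPM). All 14 S phase and all 14 G2/M genes were higher in them, and of 23 differentiation genes 4 were higher and 16 lower. Neuron clusters held 6.75% of Barx2-positive and 48.3% of Barx2-negative cells, and the part of state was not tested. Fgf8-positive cells (44.3% called) had more Rbp4 (23.9 against 4.85 CPM) and Insm2 (54.6 against 12.6 CPM) and less of the axonal tau gene Mapt (47.5 against 413 CPM). Saa1 and Saa2 also rose in them, but these near-identical copies can share reads and are uncertain. Of the hedgehog list, 9 of 11 genes were higher in Fgf8-positive cells and 1 lower, but all 14 S phase and all 14 G2/M genes were higher as well, and of 23 differentiation genes 1 was higher and 18 were lower. The part of the cell cycle in the hedgehog list was not tested.

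En1-positive cells (41.2% of genes called) had more Fgf5 (34.7 against 7.80 CPM) and Pcp4 (107 against 27.1 CPM), and less of the nuclear receptor Nr2f2 (43.4 against 189 CPM) and of Notch1 (7.88 against 27.4 CPM). All 14 S phase and all 14 G2/M genes were lower in them, and of 23 differentiation genes 15 were higher and 2 lower. The part of state in these differences was not tested. En2-positive cells differed least (3.77% called), with more of the activin subunit Inhbb (26.9 against 14.2 CPM) and of Cnpy1, a gene of isthmic FGF signaling (39.9 against 24.7 CPM), and less Nr2f2 (57.3 against 195 CPM). Nts was lower in the positive cells of every member but Barx2.

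At E14.5 the same comparison called 16.8% of genes for Tlx3, 26.5% for Barx2, 24% for En1, 4.7% for En2 and 4.7% for Fgf8, and could not be fitted for the 45 Isl1-positive cells. Ntf3 was higher in Tlx3-positive (93.9 against 10.7 CPM) and in Fgf8-positive cells (109 against 17.5 CPM), and Cnpy1 in En2-positive cells (38.5 against 21.4 CPM). Nr2f2 was lower in En1-positive (31.5 against 227 CPM) and En2-positive cells (52.1 against 238 CPM). Pcp4, higher in En1-positive cells of E18.5, was lower in those of E14.5 (70.8 against 355 CPM), a difference between stages that was not tested.

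The genes whose mean level over the 25 embryonic clusters ran most like each member were taken from 9087 genes, as a description over clusters that share libraries. For Tlx3 they were Gm12116 (Pearson r = 0.93), Ntf3 (0.87) and Pmaip1 (0.86), and for Isl1 Pmaip1 (0.83), Rph3al (0.78) and Chrnb4 (0.78). For Barx2 they were Tmod1 (0.95), Tph1 (0.94) and Nts (0.94), with the mixed clusters among the 25. For En1 they were Asphd2 (0.82), Insc (0.81) and As3mt (0.81), for En2 Cnpy1 (0.97), En1 (0.75) and Ccnjl (0.73), and for Fgf8 Rbp4 (0.83), Insm2 (0.83) and Rhoj (0.80).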

How the data were processed

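Single-cell libraries of sorted Atoh1-lineage cells were made with the 10x Genomics platform, and the authors deposited raw UMI counts for each cell, without normalization. Per the labels' processing notes, Cell Ranger 5.0.1 and mm10 were used, whereas file headers name version 3.1.0 for E14.5 control libraries 1 and 2. No Atoh1S193A/- library has version 3.1.0, so at E14.5 the version is partly confounded with genotype. Among the 5.0.1 libraries only control library 3 is left as a control of that stage. Cells with at least 1000 genes and under 5% mitochondrial UMIs were kept, the 7.5% with the highest Scrublet score per library were removed as doublets, and each stage was clustered with scanpy 1.11.5 (2000 variable genes, 30 components, 15 neighbors, Leiden resolution 1.0) in Python 3.11.15 with scipy 1.17.1, leaving out the 6 genes, sex-linked and mitochondrial genes.

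Clusters with a summed level of 40 Hox genes under 100 CPM, Pax6 of at least 300, Barhl1 of at least 50 and Lmx1a under 100 CPM formed the class. These limits, and those of states (Mki67 of 200, Atoh1 of 50 CPM) and of the Hox-positive class (Hox of 1000, Pax6 and Barhl1 of 200 CPM), were set after cluster means were seen. The members, lists and tests were chosen with earlier results of these data known.

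UMIs were summed per library and tested in R 4.3.3 with edgeR 4.0.16 (TMM, quasi-likelihood), keeping genes detected in 1% or more of either genotype's cells. DESeq2 1.42.0 was an alternative, and limma 3.58.1 was loaded with edgeR. The fit was tested on simulated data. SEs are derived from the F statistic. Per the labels each Atoh1S193A/- embryo has a littermate control, and that equal numbers mark such pairs was taken from the deviations from group means, which correlated at 0.38, 0.50 and 0.55 (E14.5) and 0.55, 0.56 and 0.77 (E18.5), so blocked values are printed beside the unblocked ones where they change a member's call. In comparisons of cell domains the library was the block, cells were thinned to 5000 UMIs, and the named genes are the 6 largest called changes in either direction among genes reaching 20 CPM with 1 sign in every library, plus called genes of 8 lists. Co-detection ratios had 0.5 added to each count. Alternatives were other filters, thinning, resolutions, a per-cell gate and leaving out libraries. All samples had groups. Intervals cover counting error only.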

Additional observations from a re-analysis of the deposited data

Results flagged for a closer look

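The effect of Atoh1S193A/- on Isl1 in the Hox-negative Pax6-positive cells was smaller at E18.5 than at E14.5 by an interaction term with same-numbered pairs as a block (edgeR, -2.02 on the log2 scale). The same was found for Barx2 (-2.18). For Isl1 this is a difference of ratios, since the mean share of positive cells was higher by 1.32 percentage points at E14.5 and 1.26 at E18.5. For Barx2 the shares were higher by 6.86 and 0.906 points. In edgeR both interactions missed the threshold without the block (FDR 0.255 and 0.778), and with the block once the mixed clusters were left out (FDR 0.067 and 0.0542). DESeq2 without a block called Isl1 (-2.08, adjusted p 0.0031) but not Barx2 (-2.08, adjusted p 0.842). The effect on Isl1 at E14.5 rests on 6, 7 and 12 UMIs in the control libraries, and in less than 1% of control cells a UMI was found. With a filter blind to genotype the blocked interactions were -2.02 (edgeR FDR 0.0348) and -2.18 (FDR 0.0447).

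Barx2 was present in P5 pontine samples outside the class that the comparisons use, at 14.3 CPM in control library 1 and 11.5 CPM in control library 2. The UMIs were concentrated in clusters led by oligodendrocyte genes, with 201 and 234 CPM in the cluster led by Bmp4 and Bcas1 (cluster 14), 161 and 151 CPM in cluster 17 and 344 and 392 CPM in cluster 18 in libraries 1 and 2. P5 has no other group to set this against.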

How the results depend on the processing

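Over 94 results and 1213 alternative values, 1018 kept direction and call or moved by less than the spread of libraries, 48 passed the threshold only in the alternative, 1 lost it, 75 moved and 71 changed sign, and the cause was not tested. Counts of genes called at E14.5 (0) were 338 with the replicate block, 92 with DESeq2, 26 without a filter, 1162 and 131 with the block without pair 2 and without mixed clusters, and 171, 246 and 18 with the block in cycling, progenitor and neuron cells. With the filter blind to genotype and the block they were 323, 109 without the mixed cluster and 160, 247 and 17 in the states. At E18.5 (5) they were 51 with the block, 76 with DESeq2, 3 with a filter of 10%, 14 without a filter, 0 with the per-cell gate, 13 at a mitochondrial limit of 10%, 0 without pair 1, 338 and 113 with the block without pair 1 and without mixed clusters, 46, 20 and 0 in cycling, progenitor and neuron cells and 227, 193 and 30 there with the block. For the interaction (0) they were 94 with the block, 36 with DESeq2, 1 without a filter, and 220 and 1 with the block without pair 2 and without mixed clusters, and with the filter blind to genotype and the block 88, or 1 without mixed clusters. Calls between Tlx3-positive and Barx2-positive cells fell to 3163, 2906 and 542 within states, where fewer cells entered. The block changed no member's call other than those of Isl1, Barx2 and En1 given above. Within a stage, blocked fits leave few residual degrees of freedom, and those without a pair the fewest, so their counts rest largely on variance shared over genes.

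The log2 differences whose signs turned were not called, and some shares and co-detection ratios turned as well. Tlx3 at E14.5 was -0.21 with the gate, -0.71 with Cell Ranger 5.0.1 libraries alone and -0.94 or, with the block, -1.17 in neurons. Its interaction was 0.20 and 0.67 under the gate and Cell Ranger 5.0.1, and at E18.5 it was 0.017 without pair 1, 0.024 with the block added and 0.00066 in cycling cells with the block. Barx2 at E18.5 was -0.28 without pair 1, with and without the block. En2 at E14.5 was -0.018 without pair 2, -0.021 with the block added, -0.0074 in cycling cells and -0.0045 and -0.014 in cycling and progenitor cells with the block (-0.0037 and -0.014 with the filter blind to genotype, where Tlx3 in neurons was -1.17), and at E18.5 it was 0.00018 and 0.0081 in neurons without and with the block. Fgf8 was 0.069 in E14.5 cycling cells and -0.41 and -0.42 in E18.5 neurons. Differences of shares (percentage points) were 0.22 and 0.21 for Tlx3 and 0.027 and 0.028 for Fgf8 at E14.5 with thinning to 3000 UMIs and a minimum of 2 UMIs, and -0.024 for Fgf8 at E18.5 without thinning, and the class share at E14.5 was -0.68 at resolution 2.0.

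Co-detection at E14.5 was -1.39 without thinning and -0.44 at 3000 UMIs for Tlx3 with Barx2, and 2.50 without thinning for En1 with En2. At E18.5 without thinning it was 4.42 for Tlx3 with Isl1, -2.70 for Tlx3 with Barx2, -0.15 for Tlx3 with En2, 4.34 for Tlx3 with Fgf8, -1.0 for Isl1 with Barx2, 0.097 for Isl1 with En2, 1.34 for En1 with En2, -0.43 for En1 with Fgf8 and 0.28 for En2 with Fgf8. At 3000 UMIs it was 2.59 for Tlx3 with Fgf8, -1.01 for Isl1 with Barx2, 0.045 for Isl1 with En2 and 0.049 for En2 with Fgf8. The gate gave -0.57 for Tlx3 with En2, -1.65 for Barx2 with En1 and 0.65 for En1 with En2, and non-cycling clusters 0.038 for Isl1 with En2 and -1.24 for Barx2 with Fgf8. Control levels (CPM) at E14.5 were 1.34 for Isl1 and 60.7 for En1 with the gate and 66.8 for En1 at the mitochondrial limit of 10%. At E18.5 that limit gave 91.7 for Tlx3, 17.4 for Barx2, 59 for En1, 56.1 for En2 and 9.69 for Fgf8, and the gate 11.8 for Barx2, 67.4 for En2 and 10.1 for Fgf8. In Atoh1S193A/- libraries the limit gave 91.3 for Tlx3, 55.0 for En2 and 10.4 for Fgf8, and the gate 63.9 for En2.

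Leaving out 1 library at a time gave 0 to 1 called genes at E14.5, 0 to 11 at E18.5 (11 without Atoh1S193A/- library 1) and 0 to 1 for the interaction. Log2 differences ranged from -0.51 to 0.89 for Tlx3, -0.082 to 0.13 for En2 and -0.69 to 0.31 for Fgf8 at E14.5, and from -0.32 (without Atoh1S193A/- library 1) to 0.56 for Barx2 and -0.098 to 0.046 for Tlx3 at E18.5. Interactions ranged from -0.92 to 0.45 for Tlx3, -0.18 to 0.024 for En2 and -0.21 to 0.79 for Fgf8. Shares ranged from -3.34 to 3.27 for Tlx3, -0.43 to 2.40 for En2 and -0.76 to 0.42 for Fgf8 at E14.5, from -1.12 to 0.59 for Tlx3, -1.04 to 1.89 for Barx2 and -0.045 to 0.49 for Fgf8 at E18.5, and for the class from -4.97 to 6.63 and -1.05 to 5.06. Co-detection of Tlx3 with Barx2 at E14.5 ranged from -1.05 to 0.90. The 6, 7 and 12 UMIs of Isl1 in E14.5 controls limit its fold change.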

Other observations

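At E14.5 several clusters outside the class held more of a member than the class average. En1 and En2 reached 375 and 356 CPM in a cluster led by Ppp1r17 and Pax5 with Th (cluster 21), and Tlx3 reached 126 CPM in the Hox-rich cluster 22. At E18.5 En2 reached 266 CPM in a cluster led by Eomes, Tac2 and Calb2 (cluster 9), genes of which Eomes marks unipolar brush cells, and En1 reached 273 CPM in a cluster with Tcf7l2, Tfap2d and Sst (cluster 31). At P5 En2 was again high in a cluster with Grp and Eomes (cluster 4, 271 CPM), so among the retained cells its highest level lay in Eomes-rich cells at both of the later ages.

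The 11 cells of P5 control library 1 that fell in the class are too few for a level. Of the 10 that reached the thinned depth, 4 held Tlx3, 3 held En1 and 4 held En2, whereas none of the 686 cells of library 2 held En1.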
